A study of Mus musculus with 6 samples.

Results

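Lrp5, Dvl3, Gsk3b, Ltbp3, Map3k11, Rps6kb2, Sipa1 and Rela are 8 signalling genes of the Wnt, TGF-beta, kinase and NF-kappaB pathways, chosen by name from a table of 15734 gene rows of the embryonic mouse head. All 8 names had a row, and all 8 rows had a mean above 1000 and entered the test between genotypes. The genes lie on mouse chromosome 16 (2 genes) and at the start of chromosome 19 (6 genes). The libraries were made from polyadenylated RNA of the heads of 6 embryos, all on a mixed C57BL/6J and 129/SvImJ background at embryonic day 9.5. The wild-type group was 3 homozygous Baf155+/+ embryos and the mutant group 3 embryos homozygous for the Baf155 msp3 allele, labelled as mutants with neural tube defects. Baf155 is the protein product of Smarcc1, which is part of the BAF chromatin remodeller. The head was cut off above the level of the pharyngeal arches and the otic vesicles. The stage is given as 19 to 21 somites in the sample labels and as 21 to 23 somites in the series description. The comparison asks how transcript levels in the mutant head differ just after the neural tube has closed in normal embryos.

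In the canonical Wnt pathway, a Wnt ligand brings Frizzled together with the co-receptor LRP5 or LRP6, Dishevelled proteins such as DVL3 carry the signal inside, and the kinase GSK3B no longer marks beta-catenin for destruction. TGF-beta ligands are secreted in a latent form bound to LTBP proteins such as LTBP3, which hold them in the extracellular matrix. MAP3K11 (also MLK3) starts MAP kinase cascades that lead to JNK, RPS6KB2 (S6K2) phosphorylates ribosomal protein S6 downstream of mTOR, SIPA1 switches off the small GTPase RAP1, and RELA is the p65 subunit of NF-kappaB. Wnt and TGF-beta family signals pattern the neural tube and the neural crest of the early head.

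None of the 8 genes passed the test between genotypes, but the Wnt co-receptor gene Lrp5 and the Rap1 regulator gene Sipa1 had mutant means 18.5% and 16.3% below the wild-type means, with no overlap between the 3 mutant and the 3 wild-type libraries. The other Wnt pathway members, Dvl3 and Gsk3b, had log2 differences of -0.049 and -0.078, with overlapping values. Map3k11 had a mutant mean 7.90% lower and Rps6kb2 one 9.97% higher, both without overlap, while Rela and Ltbp3 had means 9.53% and 7.07% higher with overlap. Groups thus did not overlap in 4 of the 8 genes, beside 19.1% of all rows tested. Among all 13329 rows tested, 3 passed a Benjamini-Hochberg adjusted p below 0.05 with limma, which is 0.0225%, and 0 of the 8 genes did. At an unadjusted p below 0.05 there were 2 of the 8, Lrp5 and Sipa1, against 10.8% of all rows tested; both were lower in mutants, as were 5.52% of all rows. No member passed with edgeR or DESeq2 on the read counts either, where 0.015% and 1.38% of rows did, or with array quality weights, where 0.45% did.

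The promoters of 6 of the 8 genes are in RefSeq's table for GRCm38.p6, from 250 bases before to 50 bases after the start. Lrp5 and Rps6kb2 have no entry. The promoters of 3 genes are printed here 5′ to 3′ because they belong to the results that follow: Sipa1 as the member with the lowest unadjusted p among those with an entry, Rela as its neighbour on the chromosome with a difference of opposite sign, and Gsk3b as the member with the most reads. Capitals mark matches, on either strand, to the GC box GGGCGG, the CCAAT box CCAAT, the TATA box TATAAA and the TCF core CTTTGA, and the build is GRCm38.p6.
Sipa1 (chr19:5663658-5663957, minus strand): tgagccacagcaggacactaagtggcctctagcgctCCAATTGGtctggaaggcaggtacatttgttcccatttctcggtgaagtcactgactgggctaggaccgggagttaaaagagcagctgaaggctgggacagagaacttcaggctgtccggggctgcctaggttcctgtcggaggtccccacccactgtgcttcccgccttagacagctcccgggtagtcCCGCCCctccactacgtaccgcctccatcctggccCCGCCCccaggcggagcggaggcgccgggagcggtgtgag
Rela (chr19:5637291-5637590, plus strand): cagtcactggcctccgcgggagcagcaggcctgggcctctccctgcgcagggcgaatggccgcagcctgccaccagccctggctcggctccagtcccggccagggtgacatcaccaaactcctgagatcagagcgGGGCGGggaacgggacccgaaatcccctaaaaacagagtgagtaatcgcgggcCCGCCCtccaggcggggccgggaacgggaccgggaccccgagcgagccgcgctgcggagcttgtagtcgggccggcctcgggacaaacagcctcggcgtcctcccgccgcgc
Gsk3b (chr16:38088751-38089050, plus strand): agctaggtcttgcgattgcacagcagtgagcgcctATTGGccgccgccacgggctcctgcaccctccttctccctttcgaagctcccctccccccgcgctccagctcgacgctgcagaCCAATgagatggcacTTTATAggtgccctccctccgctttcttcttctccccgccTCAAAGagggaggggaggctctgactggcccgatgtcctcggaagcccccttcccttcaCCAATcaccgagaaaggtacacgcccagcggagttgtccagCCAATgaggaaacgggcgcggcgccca
The Sipa1 window has 2 GC box matches and 2 CCAAT box matches, the latter overlapping on opposite strands. The Rela window has 2 GC box matches and no match to the other motifs. The Gsk3b window has 4 CCAAT box matches, 1 TATA box match and 1 TCF core match. Of the 32851 promoters in the table, 35.7% hold the GC box, 37.4% the CCAAT box, 13.6% the TATA box and 16% the TCF core. These letters are frequent, and a match is not evidence of a bound factor. The Dvl3 window has 4 GC box matches, and the windows of Map3k11 and Ltbp3 have no match to any of the 4 motifs. CpG pairs number 31 in Rela, 30 in Dvl3, 21 in Gsk3b, 16 in Sipa1, 15 in Map3k11 and 3 in Ltbp3, where the median promoter has 7.

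Row names in this table do not always carry the level of the gene they name. The fit of names to levels was therefore examined first over the stretches that hold the members, not for each member by itself. As a check, 21 genes from families that nearly every cell uses, such as those of ribosomes and the respiratory chain, were taken on chromosome 16 up to Sim2 and on chromosome 19 up to Slc22a12. A mean normalized read count of at least 1000 was found for 20 of them, or 95.2%. On the other chromosomes and past the first 10 Mb of chromosome 19, 69 of 247 such genes reached it (27.9%). The limits at Sim2 and Slc22a12 were set after the levels were seen. Just beyond the second limit Prdx5 (30.6), Trmt112 (22.7) and Fkbp2 (14.1), all broadly expressed genes, had means far below 1000. All 8 members lie inside the limits. The row named Smarcc1, the gene that carries the msp3 allele, lies outside them, and its level is not read as a check of the genotype. It held 42915, 62563 and 50066 normalized reads in wild type 1 to 3 and 35870, 52563 and 35022 in mutant 1 to 3, overlapping between the groups, with a log2 difference of -0.34 (limma, adjusted p = 0.495).

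The libraries held 46170743 to 82067578 reads in gene rows. Mutant 2 stood apart on the first principal component (36% of the variance), at 44.1 beside 3.4 and 0.2 in mutants 1 and 3. The wild-type libraries lay lower on it, from -20.3 to -12.3. On the second component wild type 1 was at 28 and mutant 1 at -22.2, and the other libraries lay between -14.5 and 13.2. Mutant 2 was the highest library in 27.9% and the lowest in 30.5% of all rows tested. Values without mutant 2 are therefore given for each of the 8 genes and for some of the other genes. Markers of endothelium and of neurons had values that did not overlap between the genotypes, which was so for 19.1% of all rows tested. The endothelial tight junction gene Cldn5 had 2070 to 2417 normalized reads in wild type and 1209 to 1719 in mutants. Neuronal Gap43 and Sst together had 5360 to 6252 in wild type and 7198 to 8193 in mutants. Most of this sum was Gap43, with 5159 to 5974 against 6547 to 7159 (log2 difference 0.30). Sst had 32.9 to 278 against 651 to 1227 (log2 difference 2.92), with 24 reads in wild type 1. The summed markers of neural progenitors (Hes1, Olig2 and Olig1, 4893 to 5179 against 4101 to 7559) overlapped. So did those of surface ectoderm (Trp63, Ovol1 and Cldn1, 1547 to 1993 against 1625 to 2680). Those of neural crest and mesenchyme (Snai2, Cd248 and Col8a1, 3940 to 4821 against 3284 to 4689) overlapped too. Tbx1 of the pharyngeal region overlapped only narrowly (2049 to 2945 against 1507 to 2074). Its log2 difference was -0.53 (limma, adjusted p = 0.396). All 14 marker genes had a row, Erg lay outside the limits, and none of the other 13 was at 0. With limma none of them passed, and the smallest adjusted p was 0.318, for Cldn5 (log2 difference -0.65). Cldn5 did pass with DESeq2 (adjusted p = 0.00176) and with limma and array quality weights (adjusted p = 0.0445), and no other marker passed with either. In bulk tissue, fewer cells of a type and less RNA per cell cannot be told apart, and the part of these markers in the differences below was not tested.

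Lrp5, which encodes the Wnt co-receptor, had normalized read counts of 10388, 9417 and 9511 in wild type 1 to 3, against 8507, 7193 and 8199 in mutant 1 to 3. Every mutant library lay below every wild-type library, and mutant 2 was the lowest. The wild-type mean was 9772 ± 536 and the mutant mean 7966 ± 687 (SD, n = 3 per genotype). The log2 difference, mutant minus wild type on the log2(value + 1) scale, was -0.30 with a standard error of 0.080 and a 95% interval of -0.48 to -0.11. It did not pass over all rows (limma, unadjusted p = 0.00534, adjusted p = 0.367), and 1.43% of the tested rows had a smaller p. An exact permutation test over the libraries, two-sided, gave p = 0.1, the smallest that 3 against 3 allows. Without mutant 2 the log2 difference was -0.23, and over the 17 alternatives the adjusted p (limma, edgeR or DESeq2) ran from 0.109 to 0.747.

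Dvl3, which encodes a Dishevelled scaffold, had 9039, 9787 and 9848 in wild type, and its mutant values were 9232, 9212 and 9256. The mutant values were close together and lay inside the wild-type range. The means were 9558 ± 450 and 9233 ± 22.2 (SD, n = 3 per genotype), giving a log2 difference of -0.049 with a 95% interval of -0.19 to 0.088 (limma, adjusted p = 0.755), or -0.047 without mutant 2. The mutant coefficient of variation was 0.24%. Counting alone gives 1.23% at the fewest reads of this row, the 6587 of wild type 1. It gives somewhat less at the 9910, 9090 and 12542 reads of mutant 1 to 3. The closeness of these 3 mutant values is not read as a measure of their precision.

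Gsk3b, the kinase of the beta-catenin destruction complex, had 20479, 19856 and 20497 in wild type and 19966, 17246 and 20579 in mutants. Mutant 2 was the one low library, and the other mutant values lay at the wild-type level. The means were 20277 ± 365 and 19264 ± 1774 (SD, n = 3 each), with a log2 difference of -0.078 and a 95% interval of -0.25 to 0.090 (limma, adjusted p = 0.684). Without mutant 2 the log2 difference was -0.00039. In the Wnt pathway, Lrp5 was thus the member with the larger difference, but whether its difference exceeded those of Dvl3 and Gsk3b was not tested.

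**Figure D1:**
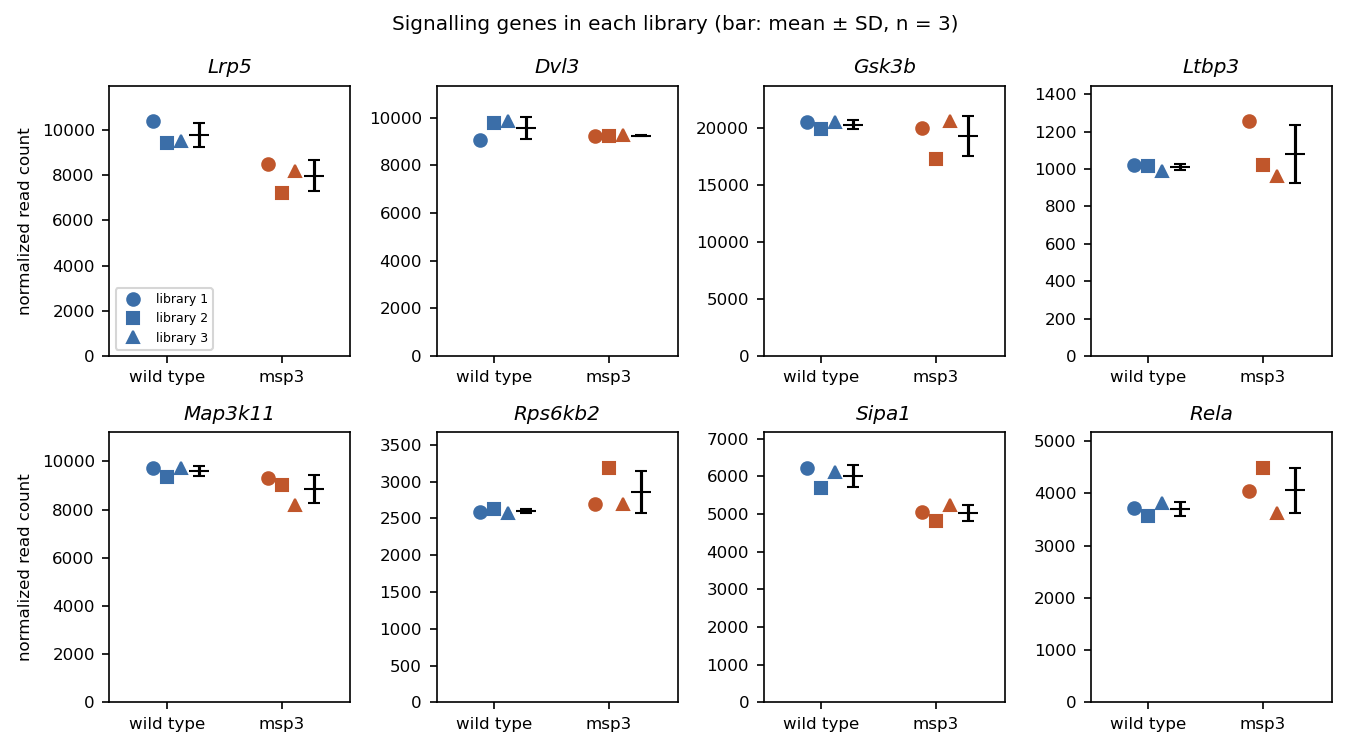
Normalized read count (y axis, from 0, scaled per gene) of the 8 genes in each library, with wild type in blue and msp3 mutants in orange, symbols for library number, and the mean ± SD (n = 3) beside them. The mutant points of Lrp5, Map3k11 and Sipa1 lie below and those of Rps6kb2 above all wild-type points, and mutant 2 is the outermost mutant library for Lrp5, Gsk3b, Rps6kb2, Sipa1 and Rela.

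Ltbp3, which encodes a latent TGF-beta binding protein, had 1020, 1016 and 991 in wild type and 1256, 1019 and 965 in mutants. Mutant 1 was high, and the other mutant values lay near the wild-type level. The means were 1009 ± 15.5 and 1080 ± 154 (SD, n = 3 per genotype), giving a log2 difference of 0.089 with a 95% interval of -0.17 to 0.35 (limma, adjusted p = 0.760). The sign depended on mutant 1, without which the log2 difference was -0.024, and without mutant 2 it was 0.13. Ltbp3 was the lowest member, with 743 to 1348 reads per library, where counting alone gives a coefficient of variation of up to 3.67%.

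Map3k11, the kinase at the top of JNK cascades, had 9724, 9355 and 9733 in wild type and 9325, 9026 and 8186 in mutants. The groups did not overlap, although mutant 1 and wild type 2 were close. The means were 9604 ± 216 and 8846 ± 591 (SD, n = 3 per genotype), giving a log2 difference of -0.12 with a 95% interval of -0.27 to 0.033 (limma, adjusted p = 0.524). Without mutant 3, the lowest library, it was -0.066, and without mutant 2 it was -0.14.

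Rps6kb2, which encodes S6 kinase 2, had 2590, 2634 and 2577 in wild type and 2699, 3188 and 2691 in mutants. All mutant values lay above the wild-type ones, with mutant 2 well above the other mutants. The means were 2600 ± 29.9 and 2859 ± 285 (SD, n = 3 per genotype), giving a log2 difference of 0.13 with a 95% interval of -0.063 to 0.33 (limma, adjusted p = 0.562). Without mutant 2 the log2 difference was 0.052. Map3k11 and Rps6kb2 each reached the exact permutation minimum of p = 0.1, two-sided.

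Sipa1, which encodes a GTPase-activating protein for RAP1, had 6228, 5676 and 6117 in wild type and 5051, 4800 and 5226 in mutants. Every mutant library lay below every wild-type library. The means were 6007 ± 292 and 5026 ± 214 (SD, n = 3 each), and the log2 difference was -0.26 with a standard error of 0.069 and a 95% interval of -0.41 to -0.10. It did not pass over all rows (limma, unadjusted p = 0.00516, adjusted p = 0.367), with an exact permutation p of 0.1, two-sided. With single libraries left out it ran from -0.30 without wild type 2 to -0.22 without mutant 2. The adjusted p over the 17 alternatives ran from 0.109, with DESeq2, to 0.747, with limma without wild type 3.

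Rela, the NF-kappaB p65 gene, had 3719, 3568 and 3819 in wild type and 4047, 4490 and 3627 in mutants. Mutants 1 and 2 lay above the wild-type values and mutant 3 lay among them. The means were 3702 ± 126 and 4055 ± 432 (SD, n = 3 per genotype), giving a log2 difference of 0.13 with a 95% interval of -0.076 to 0.33 (limma, adjusted p = 0.588). Without mutant 2 it was 0.050.

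**Figure D2:**
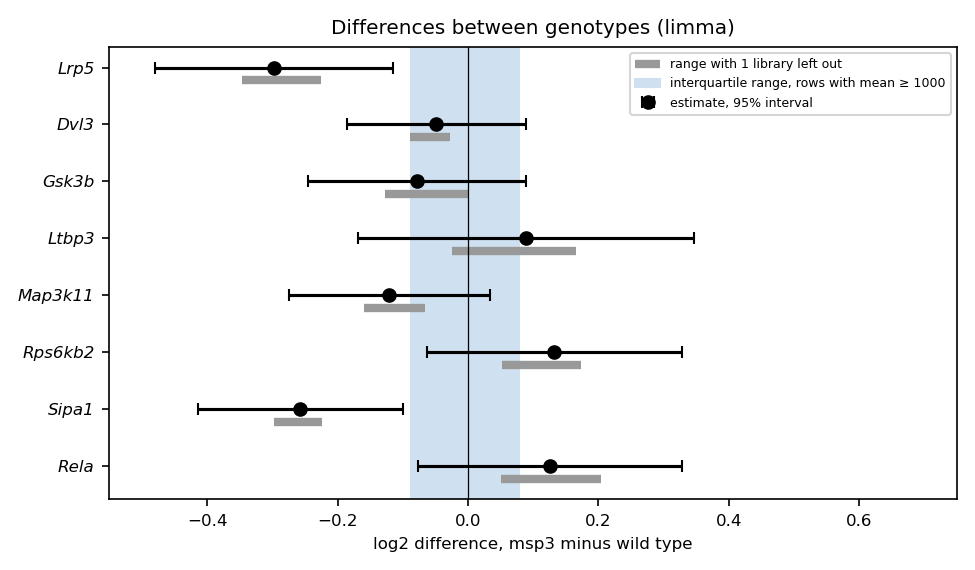
Log2 difference between genotypes (x axis, msp3 minus wild type) for the 8 genes, with limma's 95% interval as black bars and the range with single libraries left out in grey; the blue band is the interquartile range of rows with a mean of at least 1000. The intervals of Lrp5 (-0.48 to -0.11) and Sipa1 (-0.41 to -0.10) lie below 0, before adjustment over rows, and the other 6 include 0.

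The groups did not overlap in 4 of the 8 genes, 3 lower in mutants and 1 higher. Over all tested rows this was so for 19.1%, with 10.4% lower and 8.69% higher. The median absolute log2 difference of the 8 genes was 0.12, beside 0.14 over all tested rows and 0.082 over the 5499 rows with a mean of at least 1000. The median signed log2 difference was -0.063 for the 8 genes and -0.0047 over all tested rows. All 8 genes have means of at least 1000, and 6 of the 8 lie outside the interquartile range of such rows, which ran from -0.087 to 0.079. These values describe the 8 genes, and no test was made on them as a group.

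The spread among libraries also differed between the genotypes. In 6 of the 8 genes, all but Dvl3 and Sipa1, the log2 values varied more among mutants than among wild-type libraries. The same held for 68.8% of all tested rows. The SD of log2 values was 0.017 in wild type and 0.14 in mutants for Rps6kb2, 0.022 and 0.20 for Ltbp3, and 0.026 and 0.14 for Gsk3b (n = 3 each). For rows with a mean of at least 1000 the median SD was 0.055 in wild type and 0.12 in mutants. Mutant 2 was the highest library for 2 of the 8 genes and the lowest for 3. Its deviations from the wild-type mean were -0.44 for Lrp5, -0.32 for Sipa1 and -0.23 for Gsk3b, and 0.29 for Rps6kb2 and 0.28 for Rela. For Ltbp3 the outlying library was mutant 1, at 0.32, and for Map3k11 it was mutant 3, at -0.23.

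**Figure D3:**
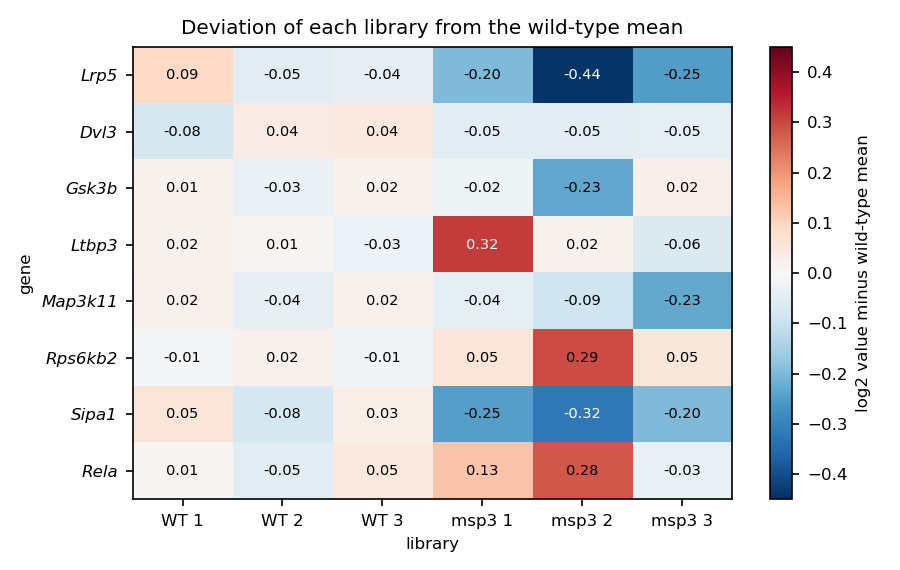
Log2 value of each gene (rows) in each library (columns) minus the wild-type mean of that gene, with red for higher and blue for lower. Lrp5 and Sipa1 are below the wild-type mean in all 3 mutant libraries, from -0.20 to -0.44 and from -0.20 to -0.32, while the largest deviations of Gsk3b, Rps6kb2 and Rela are those of mutant 2.

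Levels can be compared between genes only per length. Per kilobase of annotated exon, the mean over the 6 libraries was 2100 normalized reads for Map3k11 and 2011 for Gsk3b, whose library ranges overlapped (1863 to 2216 and 1754 to 2093). Dvl3 followed at 1466. Rela at 1262.5 and Sipa1 at 1248 were not separated, with library ranges of 1161 to 1462 and 1086 to 1409. By genotype, Sipa1 stood at 1359 and Rela at 1205 in wild type, and Sipa1 at 1137 and Rela at 1320 in mutants. Lrp5 stood at 911, Rps6kb2 at 528 and Ltbp3 at 115. The counting rule is not given in the sources used here, so exon length may not be the right divisor.

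Rela, Sipa1, Map3k11 and Ltbp3 lie within a single stretch of chromosome 19 with 5 other rows between them. Rela and its outer neighbour Kat5, a histone acetyltransferase gene, had positive log2 differences (0.13 and 0.097), and the groups did not overlap for Kat5. Then came Sipa1 (-0.26), Pcnxl3 (-0.14) and Map3k11 (-0.12), 3 consecutive rows whose mutant values all lay below the wild-type values. Over all rows tested, 10.4% were lower in mutants without overlap, and 19.1% had no overlap in either direction. Without mutant 2, Pcnxl3 was at -0.074 and Kat5 at 0.060. Kcnk7, a potassium channel gene, had 7.43 and 6.08 normalized reads in the genotypes and was below the filter of a mean of 10. Past it, Ehbp1l1 (0.088), Fam89b (0.082), Sssca1 (0.080) and Ltbp3 (0.089) had small positive values, with overlap in each of these 4 rows. No direction is read for them, since without mutant 2 the log2 difference was -0.064 for Ehbp1l1, -0.030 for Fam89b and -0.079 for Sssca1, and without mutant 1 that of Ltbp3 was below 0. With array quality weights Ehbp1l1 had -0.018. None of these rows passed with limma (smallest adjusted p = 0.367, for Sipa1). In the reference annotation Map3k11 overlaps Pcnx3, the current name of Pcnxl3, on the opposite strand, so without known strand use reads may be shared between these rows. Rps6kb2 likewise overlaps Coro1b, with a mean of 9656, and Ptprcap, with 50.5. No other row had the same 6 read counts as a member. Outside this stretch, the rows next to Lrp5 were Ppp6r3 (-0.043) and 1810055G02Rik (-0.053), with overlapping groups, and without mutant 2 these were 0.0041 and -0.092.

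**Figure D4:**
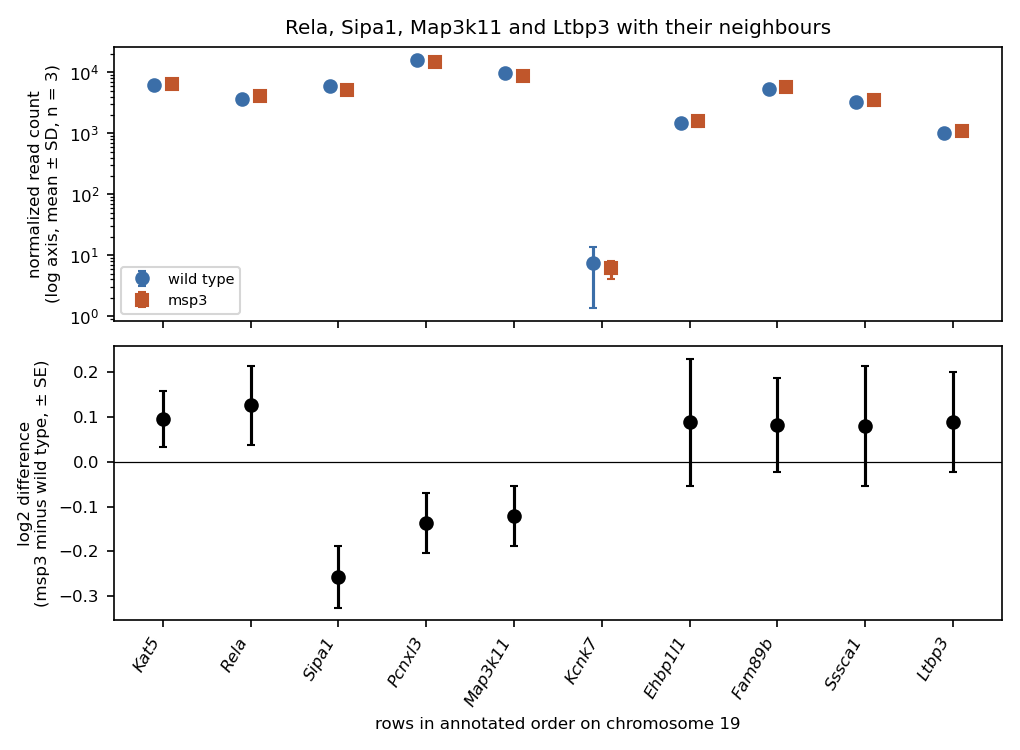
Rows from Kat5 to Ltbp3 in annotated order on chromosome 19 (x axis), with the mean ± SD (n = 3) normalized read count of each genotype on a log axis above and the log2 difference ± SE below. The consecutive rows Sipa1, Pcnxl3 and Map3k11 lie at -0.26, -0.14 and -0.12, and Kcnk7, at 7.43 and 6.08 reads, has no tested difference.

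Other genes listed for these pathways within the same limits gave 24 further tested rows, from lists written by broad role. Of these, 0 of the 24 passed (limma, adjusted p below 0.05), nor did any with edgeR or DESeq2. At an unadjusted p below 0.05 (limma) there were 2 of the 24, Fstl1 and Ppm1f, beside 10.8% of all rows tested. Of the 24, 6 were higher and 18 lower in mutants, with a median log2 difference of -0.044, but with array quality weights 11 were higher and 13 lower, with a median of -0.016. With quantile normalization or equal medians 8 were higher and 16 lower, Arvcf and Men1 having turned positive, and without mutant 3 the split was 10 and 14. In the main scaling 51.1% of all tested rows were lower, with a median of -0.0047. Groups did not overlap in 4 of the 24, beside the 19.1% over all rows.

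In the Wnt list, the SUMO protease gene Senp2 (-0.022), Ccdc85b (-0.10), the coactivator gene Crebbp (-0.13) and the catenin family gene Arvcf (-0.0081) had overlapping groups, and without mutant 2 these were -0.068, -0.19, -0.073 and -0.076. With Lrp5, Dvl3 and Gsk3b, 7 of 7 tested rows had a negative value in the main fit and 0 passed. Arvcf turned positive with quantile normalization, equal medians or edgeR, and without wild type 2, wild type 3, mutant 1 or mutant 3. Senp2 turned positive without mutant 1 (0.031). No common direction is read for this list. No Wnt ligand or Frizzled gene is on this list, which holds only genes inside the limits. In the TGF-beta and BMP list, the secreted glycoprotein gene Fstl1, a BMP antagonist, had 27415, 24376 and 27181 in wild type and 23288, 16056 and 22066 in mutants. All mutant values were lower, with mutant 2 the lowest, and the log2 difference was -0.38 ± 0.13 (SE; limma, adjusted p = 0.404), or -0.21 without mutant 2. Vasn, which encodes a TGF-beta binding protein, had -0.22, or -0.094 without mutant 2. Lrrc33, the older name of Nrros, which holds latent TGF-beta on myeloid cells, had -0.28, but 0.031 with array quality weights and -0.035 without wild type 1. The BMP antagonist gene Chrd had 0.19 and Men1, for the SMAD3 partner menin, -0.0051. Ltbp3 and Chrd were thus the 2 positive values of 6 in this list, where Lrrc33 turned positive with array quality weights and Men1 with quantile normalization, equal medians, edgeR or DESeq2, and none passed.

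Among MAP kinase genes, the adaptor gene Crkl had a log2 difference of -0.14, or -0.078 without mutant 2, and Lztr1, for an adaptor of Ras ubiquitination, 0.11, both without overlap (limma, adjusted p = 0.481 and 0.492). Pak2 had -0.096 (-0.055 without mutant 2), Map4k2 -0.046 (-0.025) and Map3k13 0.058 (0.20), with overlap. Of the 6 MAP kinase rows given here, with Map3k11, 2 were higher and 4 lower in mutants, and Map4k2 turned positive with array quality weights. Of the genes that regulate Ras and Rap beside Sipa1, Rasgrp2 had -0.29 and Rin1 -0.029, with overlap, and both turned positive with array quality weights, to 0.030 and 0.044.

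The list for the AKT and S6 kinase branch held the phosphatase gene Ppm1f, whose action on AKT or S6 kinase was not tested. Its difference is therefore not read as one of that branch. Ppm1f had 10483, 9135 and 9571 in wild type and 8627, 7271 and 8467 in mutants. No value was shared between the groups, and the log2 difference was -0.26 ± 0.086 (SE; limma, adjusted p = 0.403). Ppp2r5b, a PP2A regulatory subunit gene, had 0.11, Ppp1ca, a PP1 catalytic subunit gene, 0.032, and Pi4ka -0.042, with overlap, and the latter pair turned sign with array quality weights, as Ppp1ca did without mutant 2 (-0.062). Beside Rela, the NF-kappaB list had Nfkbiz, a nuclear IkappaB gene, at 0.24 and the ubiquitin ligase gene Peli3 at -0.051, which was 0.11 without mutant 2. The transcription factor genes Etv5 and Fosl1, which respond to ERK signalling, had -0.039 and -0.070, or -0.13 and -0.086 without mutant 2. Bad and Ripk4 had rows with means of 4.70 and 3.14 that lie beyond the limits where names fitted levels and are not read, and Rps6ka4 and Ets2 had no row of that name.

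**Figure D5:**
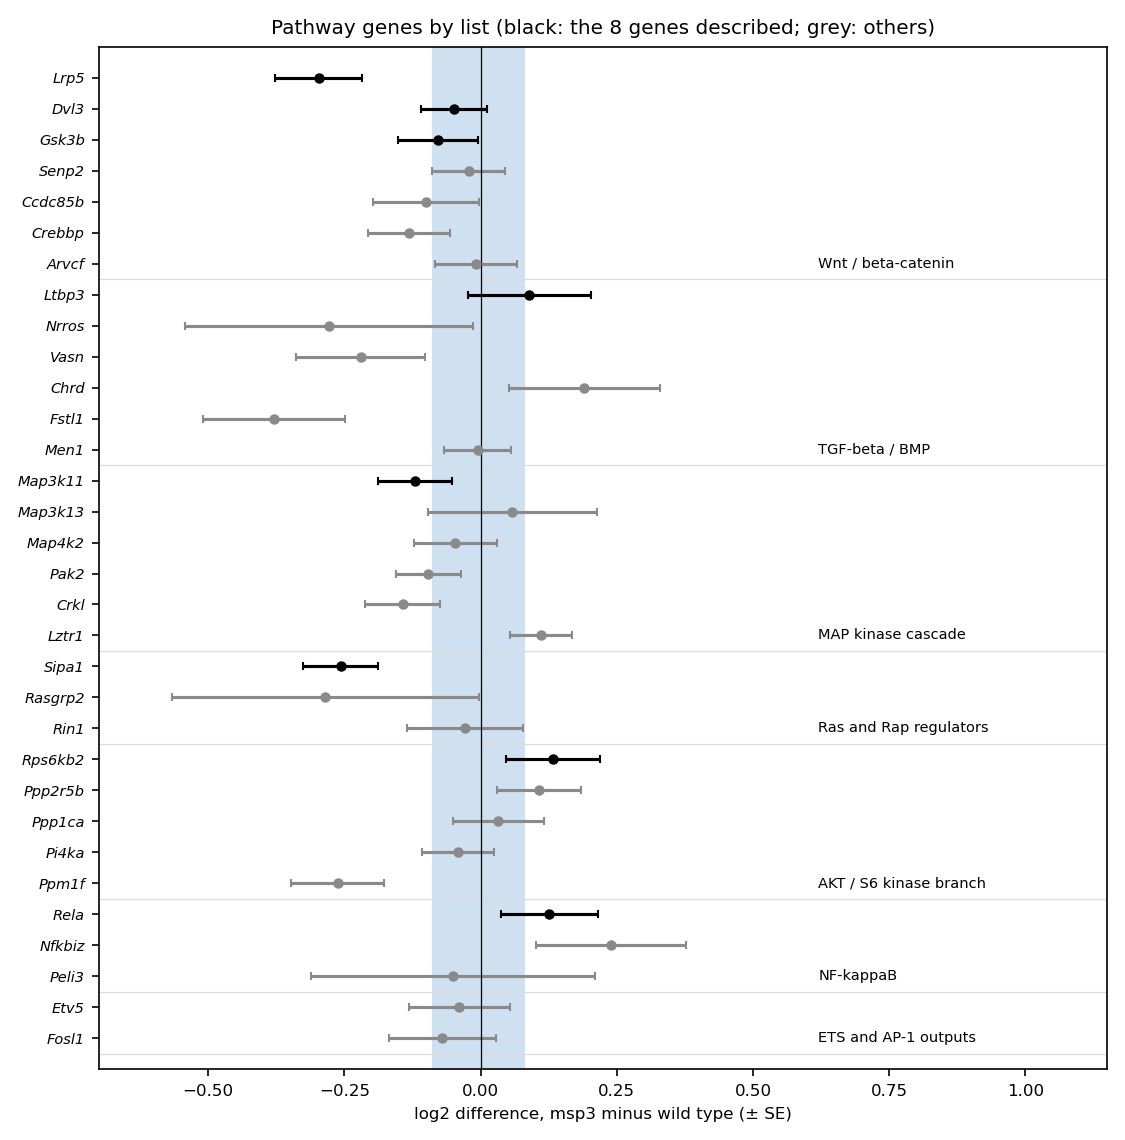
Log2 difference between genotypes (x axis, msp3 minus wild type, ± SE) for the 32 pathway genes, grouped by list, with the 8 genes described here in black, the others in grey and the interquartile range of rows with a mean of at least 1000 as a blue band. Lrp5, Sipa1, Fstl1 and Ppm1f lie from -0.26 to -0.38, and 23 of the 32 values are below 0, against 18 of 32 with array quality weights and 21 with quantile normalization or equal medians.

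For each gene, the row most like it over the 6 libraries was sought among 655 other protein-coding rows of chromosome 16 and of the first 10 Mb of chromosome 19, by Pearson's r of log2 values. The r is a description: libraries of 2 genotypes share it, and with 655 rows some high values arise. The row most like Lrp5 was Lpp (r = 0.993), a gene for a focal adhesion protein, with a log2 difference of -0.30 of its own. For Sipa1 it was the endothelial gene Cldn5 (0.983), with a log2 difference of -0.65. Map3k11 was most like Syvn1 (0.989), for a ubiquitin ligase of the endoplasmic reticulum, and Rps6kb2 like Ndufb4 (0.984), for a subunit of respiratory complex I. Rela was most like Mzt2 (0.982) and Ltbp3 like Ifnar2 (0.952), an interferon receptor gene. For Dvl3 and Gsk3b the closest rows, named Atl3 and Erg, lie beyond the limits where names fitted levels. Rows with r above 0.9 numbered 48 for Rps6kb2, 43 for Rela, 27 for Gsk3b, 24 for Lrp5, 13 for Sipa1, 8 for Map3k11, 5 for Ltbp3 and 4 for Dvl3.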

How the data were processed

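RNA-seq of 3 wild-type and 3 msp3 mutant embryos was used. The authors deposited a table of normalized signal per gene row and library; values were whole multiples of a step per library, and dividing by it gave back whole reads, within 0.001 reads, for 100% of values. The submitters' processing notes name CASAVA 1.7, bedtools and mm9 without their roles; counting rule, strand use and annotation are steps not given in the sources used here. Rows were matched by symbol (14433) or older symbol (1079) to GENCODE M21 on GRCm38, another build, used for names, chromosomes, exon lengths and neighbours only; 222 were not matched. Another 17 columns, 12 of them in a side block, and a second sheet with the Smarcc1 row were not used.

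Genotypes were compared on log2(value + 1) with limma 3.58.1 in R 4.3.3, its variance prior following the mean, over the 13329 rows whose mean reached 10. Tests were two-sided and p-values adjusted by Benjamini-Hochberg over these rows, with 0.05 as the limit. edgeR 4.0.16 (quasi-likelihood) and DESeq2 1.42.0 on the recovered reads, other scalings, filters, pseudocounts and variance models, a replicate block and leaving out each library were alternatives. The limma step was tested on simulated data with larger differences than those of the 8 genes and the same spread in both groups. That test does not cover differences as small as these or the larger spread among mutants. No replicate pair was a repeat of 1 library (chi-square of counts over its degrees of freedom, 10.5 to 83.8). Counting errors given cover counting only. The genes, lists and the naming rule (the 8 genes, all list genes, chromosomal neighbours and the most similar row) were chosen with earlier results of these data known. A few rows of the lists and neighbours are not reported here, and list counts leave them out. Python 3.11.15 with pandas 2.3.3, numpy 2.4.6 and scipy 1.17.1 was used.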

Additional observations from a re-analysis of the deposited data

How the results depend on the processing

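Where limma called 3 rows, quantile normalization and equal medians each gave 5, limma without trend 0; calls numbered 60 with array quality weights and 155 with DESeq2 on whole reads, and ran from 0 (without wild type 2 or 3) to 14 (without mutant 1 or 2) when single libraries were left out; the cause was not tested. Under all 17 alternatives, 0 of the 8 genes and 0 of the 24 other pathway genes were called. Of the 8 genes, 7 kept their sign throughout and Ltbp3 ran from -0.024 (without mutant 1) to 0.17 without single libraries. Signs turned in 12 of the 24 others, Lrrc33 and Rasgrp2 with -0.28 and -0.29 among them. With quantile normalization, equal medians and edgeR the log2 difference was 0.011, 0.0087 and 0.0014 for Arvcf and 0.0011, 0.012 and 0.0036 for Men1, which had 0.0014 with DESeq2. With array quality weights it was 0.031 for Lrrc33, 0.013 for Map4k2, 0.030 for Rasgrp2, 0.044 for Rin1, -0.0081 for Ppp1ca, 0.012 for Pi4ka and 0.21 for Peli3, which had 0.0019 with edgeR and 0.0011 with DESeq2. With single libraries left out it ran from -0.068 to 0.031 for Senp2, -0.076 to 0.039 for Arvcf, -0.046 to 0.034 for Men1, -0.067 to 0.20 for Map3k13, -0.57 to 0.021 for Rasgrp2, -0.098 to 0.034 for Rin1, -0.062 to 0.11 for Ppp1ca, -0.34 to 0.11 for Peli3 and -0.13 to 0.019 for Etv5. The cause of these turns was not tested, and no direction is read for these genes. Deviations of libraries with the same replicate number had correlations of -0.045, 0 and 0.059, beside -0.065 to 0.055 for different numbers. Pairing by number was thus not seen, but these correlations cannot show that the embryos were unpaired. With the replicate block 3 rows and 0 of the 8 genes were called.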
